A study of Mus musculus with 16 samples.

Results

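The ErbB family consists of receptor tyrosine kinases at the cell surface and the growth factors that bind them. On the arrays of this series 10 genes of the family were measured, 6 ligands (Hbegf, Egf, Tgfa, Nrg1, Nrg2 and Nrg3) and 4 receptors (Egfr, Erbb2, Erbb3 and Erbb4). They carried 21 of the 28898 probe sets that name exactly 1 gene, and were 10 of the 17097 genes so named. A probe set is a group of short oligonucleotides that together report 1 transcript or part of it. The family was chosen by the measured values of Hbegf, whose leading probe set had a risperidone difference of opposite sign in the 2 strains. The other members were then taken by name. The values of Hbegf in each strain and treatment, and the strain difference of the risperidone effect in every member, are therefore given as descriptions with no test.

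ErbB ligands are made as precursors in the membrane and are released by metalloproteases. Binding of a ligand pairs the receptors, and the paired kinases then signal through adaptor proteins to the RAS to ERK cascade and through PI3K to AKT. Egf, Tgfa and Hbegf bind Egfr, Hbegf also binds Erbb4, and the neuregulins bind Erbb3 and Erbb4. Erbb2 has no known soluble ligand and serves as the partner of the others. In the adult brain Erbb4 is best known from GABAergic interneurons and Erbb3 from the oligodendrocyte lineage, the cells that make myelin.

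Mice of the inbred strains A/J and DBA/2J, all males 7 to 8 weeks old, received risperidone or no drug. Risperidone, an antipsychotic, is an antagonist of D2 dopamine receptors and of 2A serotonin receptors. It was given by intraperitoneal injection at 1 mg/kg once a day for 3 days. The control mice are labelled untreated, whereas the treatment protocol names saline injections. Each of the 4 groups (A/J control, A/J risperidone, DBA/2J control, DBA/2J risperidone) had 4 biological replicates, measured on 1 array each. The labels name no engineered allele. The labelled tissue was striatum and the measured material its total RNA, so fewer cells of a type and less RNA per cell cannot be told apart.

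Several facts of the whole series touch the values below. A set of 46 to 49 probe sets that separate the strains, picked on the control arrays without the array scored, none of them a member, placed the A/J control arrays at -2.30% to 0.993% and the DBA/2J arrays at 87.6% to 103.2% of the DBA/2J signal. A/J risperidone replicates 1, 2 and 4 lay between, at 27.9%, 36.2% and 39.1%, and replicate 3 was at 0.584%. DBA/2J control replicate 4 had the lowest mean correlation with the other arrays, 0.975 against 0.988 to 0.992. Drd2, which defines indirect pathway neurons of the striatum, was below the median of all probe sets on 16 of 16 arrays at log2 levels of 3.62 to 4.90. The other 8 measured markers of striatal projection neurons, among them Drd1 (5.85 to 6.51) and Penk (6.13 to 7.98), were above it on every array. Of 7 cortical markers 6, among them Slc17a7 (9.52 to 10.2) and Tbr1, were also above it on every array, and Emx1 was below it on 14 of 16. Markers of both tissues were thus measured, and of those of striatal projection neurons only Drd2 was below the median. The cortical markers were the brighter list, with group means of 8.24 to 8.28, against 6.25 to 6.55 for striatal projection neurons. How much of each tissue the samples held was not tested. Results are given with and without the arrays in doubt where these change them.

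Promoter sequence was available in the RefSeq promoter table (build GRCm38.p6) for 6 of the 10 members, with 7 entries. Egf is shown because, besides Hbegf, it was the member whose leading probe set stood apart in treated DBA/2J mice, and Erbb4 is set beside it as a receptor whose groups overlapped. Both are the 250 bases upstream of the annotated start, given 5′ to 3′ on the strand of the gene, with every CG dinucleotide in capitals. The Egf sequence is chr3:129755323-129755572 on the minus strand, and the Erbb4 sequence is chr1:69108060-69108309 on the minus strand.
Egf: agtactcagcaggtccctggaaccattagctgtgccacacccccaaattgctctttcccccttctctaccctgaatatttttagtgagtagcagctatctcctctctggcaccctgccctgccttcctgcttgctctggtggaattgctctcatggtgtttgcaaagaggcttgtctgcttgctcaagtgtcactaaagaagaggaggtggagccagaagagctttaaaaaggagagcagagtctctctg
Erbb4: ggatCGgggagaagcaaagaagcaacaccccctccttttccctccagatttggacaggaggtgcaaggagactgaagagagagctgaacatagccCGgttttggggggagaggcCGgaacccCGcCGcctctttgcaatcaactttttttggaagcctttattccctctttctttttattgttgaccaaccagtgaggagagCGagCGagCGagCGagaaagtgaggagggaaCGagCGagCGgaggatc
The Egf stretch holds 0 CG dinucleotides, as do 7.87% of the 32851 promoters in the table, and its GC content is 50.4%. The Erbb4 stretch holds 12, against a median of 6 over all promoters, at a GC content of 54.0%. A second Egf entry holds 15, Tgfa 19, Egfr 11, Erbb2 16 and Nrg3 27. A search of both strands found the AP-1 motif TGANTCA, the cAMP response element TGACGTCA and the EGR motif GCGNGGGCG in 0 of the 7 member promoters. Over all promoters they were found in 6.75%, 1.55% and 4.7%. No match says only that these letters are not in these windows.

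Hbegf, heparin-binding EGF-like growth factor, is made as a membrane-anchored precursor and is known to be induced after brain injury. On its leading probe set, 1418350_PM_at, the log2 levels of the A/J control arrays were 5.85, 5.79, 5.92 and 5.64, and those of the A/J risperidone arrays 5.40, 5.62, 5.51 and 5.40. The DBA/2J control arrays stood at 5.49, 5.63, 5.38 and 5.41, and the DBA/2J risperidone arrays at 5.88, 5.67, 5.90 and 5.79. Every A/J array with risperidone was thus below every A/J control, and every DBA/2J array with risperidone was above every DBA/2J control. The gaps were small, 5.64 against 5.62 in A/J and 5.67 against 5.63 in DBA/2J. Neither of the 2 Hbegf probe sets had a mean level at or above the median of all probe sets, 5.67. No detection calls were used to set them against background.

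**Figure D1:**
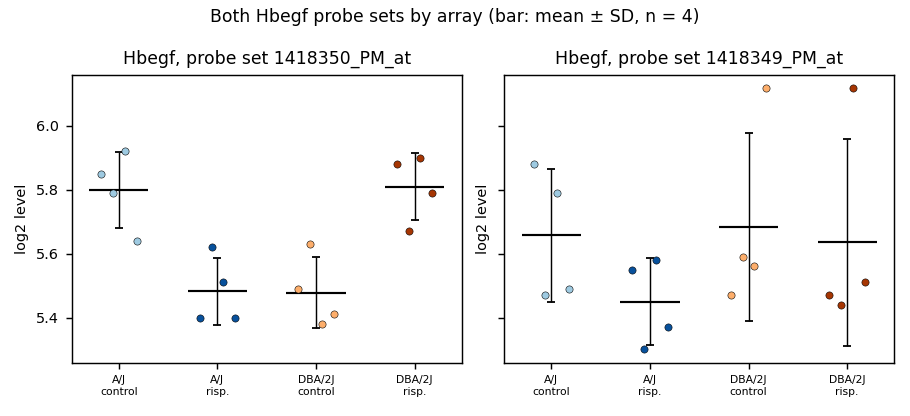
Log2 level (vertical axis) of both Hbegf probe sets on every array, by group; points are arrays and bars the mean ± SD (n = 4). On 1418350_PM_at the treated A/J arrays lie at 5.40 to 5.62 and the treated DBA/2J arrays at 5.67 to 5.90, while on 1418349_PM_at the groups overlap and 2 DBA/2J arrays reach 6.12.

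The group means were 5.80 ± 0.12 (SD, n = 4) in A/J controls, 5.48 ± 0.11 in treated A/J mice, 5.48 ± 0.11 in DBA/2J controls and 5.81 ± 0.10 in treated DBA/2J mice. The control mice of 1 strain therefore stood where the treated mice of the other strain did. The log2 difference of risperidone minus control was -0.32 in A/J, a ratio of 0.802, and 0.33 in DBA/2J, a ratio of 1.26 (SE 0.09 each). The DBA/2J difference minus the A/J difference was 0.65 with an SE of 0.12. Of the 28898 probe sets, 35 (0.121%) likewise had arrays that did not overlap in either strain and moved in opposite directions. The same levels give a DBA/2J minus A/J difference of -0.32 in control mice and 0.33 in risperidone mice.

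Risperidone differences of opposite sign partly cancel in their mean over both strains. The choice does not fix the mean strain difference over both treatments. Both means are given as descriptions with no test. The mean risperidone difference of Hbegf was 0.0075 (SE 0.06) and the mean strain difference 0.0025 (SE 0.06). Both signs depended on the processing.

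Without the 3 A/J risperidone arrays of intermediate strain markers a single treated A/J array remained. Resting on that array, the difference was -0.29 in A/J and the strain difference of the effect was 0.62. It was 0.60 when DBA/2J control replicate 4 was left out as well, and 0.63 with the marker share as a covariate. The only treated A/J array with a marker share like the controls, replicate 3, had a level of 5.51, inside the range of the other 3. With any single array left out the value lay between 0.61 and 0.70.

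Of the 11 cell type lists, that of striatal projection neurons had the highest correlation with Hbegf over all arrays. Over 9 of 12 listed genes of striatal projection neurons, the mean log2 level was 6.55 in A/J controls (6.29 to 6.87), 6.43 in treated A/J mice (6.35 to 6.50), 6.25 in DBA/2J controls (6.13 to 6.35) and 6.50 in treated DBA/2J mice (6.36 to 6.64). Its correlation with Hbegf over the 16 arrays was 0.59 and fell to 0.34 once group means were taken out. Of these 9 markers Drd2 was below the median of all probe sets on every array. The astrocyte list had its group means in the same order as Hbegf, highest in treated DBA/2J mice (8.62) and lowest in DBA/2J controls (8.55), with a correlation of 0.42 and of 0.22 within groups. Markers of choroid plexus and ependyma had a correlation of 0.35, and of 0.42 within groups, the highest positive value there. Unlike Hbegf, their mean was higher in treated A/J mice (5.19) than in A/J controls (5.04). Within groups the strongest relation was with 3 genes of oligodendrocyte precursors, at -0.59. Over all arrays that correlation was -0.22, and -0.11 without the 2 arrays farthest out in the marker level. Of these 3 genes Pdgfra was below the median of all probe sets on every array. The part of these cells in the Hbegf values was not tested.

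**Figure D2:**
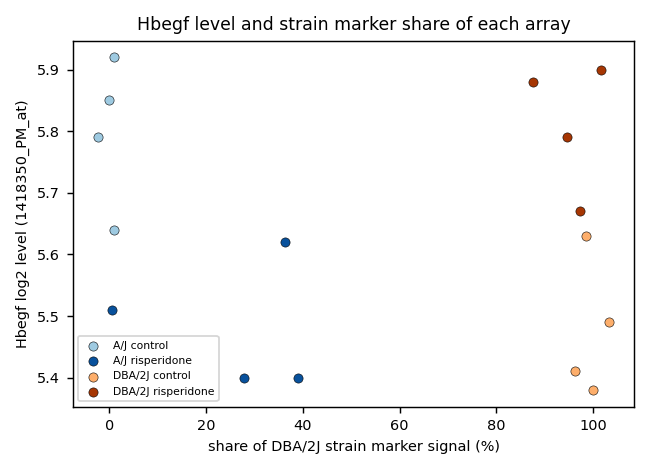
Log2 level of Hbegf on 1418350_PM_at (vertical axis) against the share of DBA/2J marker signal of each array in percent (horizontal axis), 1 point per array, colored by group. Of the treated A/J arrays, 3 lie at shares of 27.9% to 39.1% and 1 at 0.584%, and all 4 have levels of 5.40 to 5.62.

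The second Hbegf probe set, 1418349_PM_at, did not show this pattern. Its levels were 5.88, 5.47, 5.79 and 5.49 in A/J controls, 5.55, 5.30, 5.58 and 5.37 in treated A/J mice, 5.47, 5.59, 5.56 and 6.12 in DBA/2J controls, and 5.47, 5.44, 6.12 and 5.51 in treated DBA/2J mice. All 4 groups overlapped, and DBA/2J control replicate 4 and DBA/2J risperidone replicate 3 stood apart at 6.12. The risperidone difference was -0.21 in A/J and -0.05 in DBA/2J, and the strain difference of the effect was 0.16 (SE 0.22). Across the 16 arrays the 2 Hbegf probe sets had a correlation of 0.23. Averaged over both, the strain difference of the Hbegf effect was 0.40.

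Egf, epidermal growth factor, is the ligand after which the receptors are named. Its probe set 1418093_PM_a_at gave 4.46, 4.55, 4.62 and 4.54 in A/J controls and 4.46, 4.51, 4.53 and 4.45 in treated A/J mice. It gave 4.46, 4.28, 4.22 and 4.57 in DBA/2J controls and 4.65, 4.62, 4.76 and 4.74 in treated DBA/2J mice. All of these levels are below the median of all probe sets, 5.67, and no detection calls were used to set them against background. In DBA/2J every treated array was above every control array, and in A/J the groups overlapped. The difference was 0.31 ± 0.08 (SE) in DBA/2J, with an adjusted p of 0.207 by limma, and -0.06 in A/J (95% interval -0.23 to 0.12, adjusted p = 0.996). The Egf difference in DBA/2J did not pass the test, and it lay between 0.26 and 0.37 with any single array left out. The treated DBA/2J arrays were also above the treated A/J arrays without overlap, by 0.20 (adjusted p = 0.410).

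Tgfa, transforming growth factor alpha, had 3 probe sets whose group means ran from 5.55 to 5.67, 5.30 to 5.35 and 4.97 to 5.04. On the leading one, 1421943_PM_at, the arrays lay between 5.38 and 6.03 and all groups overlapped. DBA/2J control replicate 4 was the highest of all 16 arrays there and on 1421942_PM_s_at (5.76). The risperidone difference of Tgfa was -0.12 in A/J (95% interval -0.37 to 0.13) and -0.03 in DBA/2J (-0.29 to 0.22), with adjusted p-values of 0.989 and 0.939. Neither passed the test.

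The neuregulins act mostly on Erbb3 and Erbb4. Nrg1, with 1 probe set, had group means of 5.61 to 5.84. Its risperidone difference was -0.07 ± 0.13 (SE) in A/J and 0.23 ± 0.13 in DBA/2J (adjusted p = 0.537), and the groups overlapped in both strains. A/J risperidone replicate 3, at 5.40, was below the other 3 at 5.82 to 5.86. Without it the A/J difference was 0.05. Replicate 3 was also the only treated A/J array with a marker share like the controls. Without the other 3, the arrays of intermediate markers, the A/J difference of Nrg1 was -0.40, resting on that single treated array.

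Nrg2 had 2 probe sets that did not move alike. On 1447654_PM_at, the leading one, the difference was -0.19 ± 0.10 (SE) in A/J (adjusted p = 0.925), -0.10 in DBA/2J, and -0.14 on average (95% interval -0.29 to -0.0013, adjusted p = 0.721). On 1444491_PM_at, singled out after its values were seen, the control arrays of DBA/2J stood at 5.48, 5.72, 5.27 and 5.65 and the treated ones at 5.07, 5.31, 4.95 and 5.35. The A/J arrays were at 5.03 to 5.30 in controls and 5.15 to 5.40 with risperidone. DBA/2J controls were thus the high group, overlapping the treated mice only through replicate 3. The difference in DBA/2J was -0.36 ± 0.11 (SE; adjusted p = 0.277) and that in A/J 0.10. DBA/2J controls were above A/J controls by 0.34 ± 0.11 (adjusted p = 0.0964), which did not pass the test. This difference passed without DBA/2J control replicate 3, the lowest of these controls (adjusted p = 0.0353), and in a fit that blocked on replicate number (adjusted p = 0.0307). It passed in none of the other alternatives run on this probe set.

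Nrg3, a brain neuregulin that binds Erbb4, lay far above the median of all probe sets on 1421017_PM_at. Its group means there ran from 8.61 to 8.66, with SDs of 0.06 to 0.19. The risperidone difference was 0.04 in A/J (95% interval -0.15 to 0.24) and -0.03 in DBA/2J (-0.23 to 0.16). A second probe set, 1460289_PM_at, gave -0.18 ± 0.09 (SE) in DBA/2J (adjusted p = 0.470), and the 2 Nrg3 probe sets had a correlation of -0.21 over the arrays. No Nrg3 difference passed the test.

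Egfr, the receptor of Egf, Tgfa and Hbegf, was read by 6 probe sets whose pairwise correlations ran from -0.46 to 0.33. The leading one, 1435888_PM_at, lay between 5.84 and 6.56 on all arrays with all groups overlapping. Its risperidone difference was -0.03 ± 0.13 (SE) in A/J and 0.12 ± 0.13 in DBA/2J (adjusted p = 0.750). Without the 3 A/J arrays of intermediate markers the A/J difference of Egfr turned to 0.24, resting on a single treated array. On 1424932_PM_at the DBA/2J arrays averaged 0.16 ± 0.06 (SE) above the A/J arrays, which did not pass the test (adjusted p = 0.184).

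Erbb2, the partner receptor, had the smallest risperidone difference of the 10 leading probe sets in both strains. Its levels were 4.57 to 4.70 in A/J controls, 4.51 to 4.78 in treated A/J mice, 4.62 to 4.92 in DBA/2J controls and 4.61 to 4.90 in treated DBA/2J mice. The group means of Erbb2 were equal in A/J, at 4.64, and differed by -0.02 in DBA/2J (95% interval -0.21 to 0.17). DBA/2J mice stood 0.13 higher on average (95% interval -0.0019 to 0.26, adjusted p = 0.318).

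Erbb3, a receptor with a weak kinase that signals through its partners, stood on 1434606_PM_at at 6.37, 6.41, 6.67 and 6.24 in A/J controls and at 6.03, 6.37, 6.25 and 6.23 in treated A/J mice. It stood at 6.32, 6.30, 6.01 and 6.17 in DBA/2J controls and at 6.18, 6.08, 6.14 and 6.25 in treated DBA/2J mice. The 2 highest arrays were A/J controls, and all groups overlapped. The risperidone difference of Erbb3 was -0.20 ± 0.10 (SE) in A/J (adjusted p = 0.922) and -0.04 in DBA/2J (adjusted p = 0.917). DBA/2J controls stood 0.22 below A/J controls (adjusted p = 0.254). On the dimmer 1452482_PM_at the treated DBA/2J arrays, at 4.25 to 4.58, were all below the controls, at 4.59 to 4.70, by 0.21 (adjusted p = 0.528). None of these passed the test.

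The level of Erbb3 moved with markers of oligodendrocytes, 15 of 16 of which were measured. Over the 16 arrays Pearson's r was 0.69 and Spearman's rho 0.59, and r was 0.56 after group means were taken out. Without A/J control replicate 3 and DBA/2J risperidone replicate 4, the arrays farthest out in the marker level, r was 0.53. A/J control replicate 3 was highest in both. The mean marker level was 8.09 in A/J controls (7.81 to 8.40), 7.88 in treated A/J mice (7.76 to 8.04), 7.61 in DBA/2J controls (7.43 to 7.73) and 7.74 in treated DBA/2J mice (7.39 to 8.15). Erbb3 also had a correlation of 0.60 with thalamus markers (0.53 within groups, 0.18 without the 2 arrays farthest out), of 0.55 with microglia markers (0.265 within groups) and of 0.34 with astrocyte markers (0.51 within groups). A/J control replicate 3 was the highest in thalamus markers too. Among the 110 relations computed, 10 members against 11 cell type lists, that of Erbb2 with interneuron markers was as high, at 0.69 (0.74 within groups, 0.48 without the 2 arrays farthest out), and Erbb4 reached 0.64 with microglia markers. The part of these cells in the values was not tested.

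**Figure D3:**
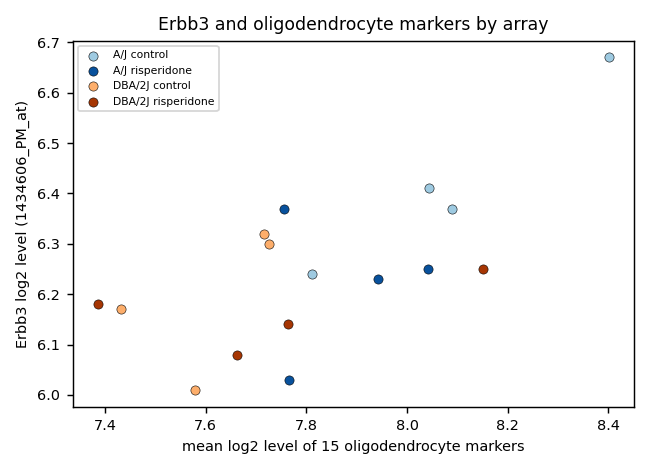
Log2 level of Erbb3 on 1434606_PM_at (vertical axis) against the mean log2 level of 15 oligodendrocyte markers (horizontal axis), 1 point per array, colored by group. The array highest in both is A/J control replicate 3, with an Erbb3 level of 6.67.

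Erbb4, a neuregulin receptor best known from interneurons, had group means of 5.65 to 5.82 on 1427783_PM_at, with arrays between 5.48 and 5.97. The risperidone difference was 0.03 in A/J (95% interval -0.15 to 0.22) and -0.05 in DBA/2J (-0.24 to 0.14), and neither passed the test. DBA/2J mice stood 0.13 ± 0.06 (SE) lower on average (adjusted p = 0.303). The correlation of Erbb4 with interneuron markers was -0.34 over the 16 arrays and -0.10 within groups. With microglia, thalamus and oligodendrocyte markers it was 0.64, 0.59 and 0.50 (0.59, 0.50 and 0.39 within groups). The part of these cells in the Erbb4 values was not tested.

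**Figure D4:**
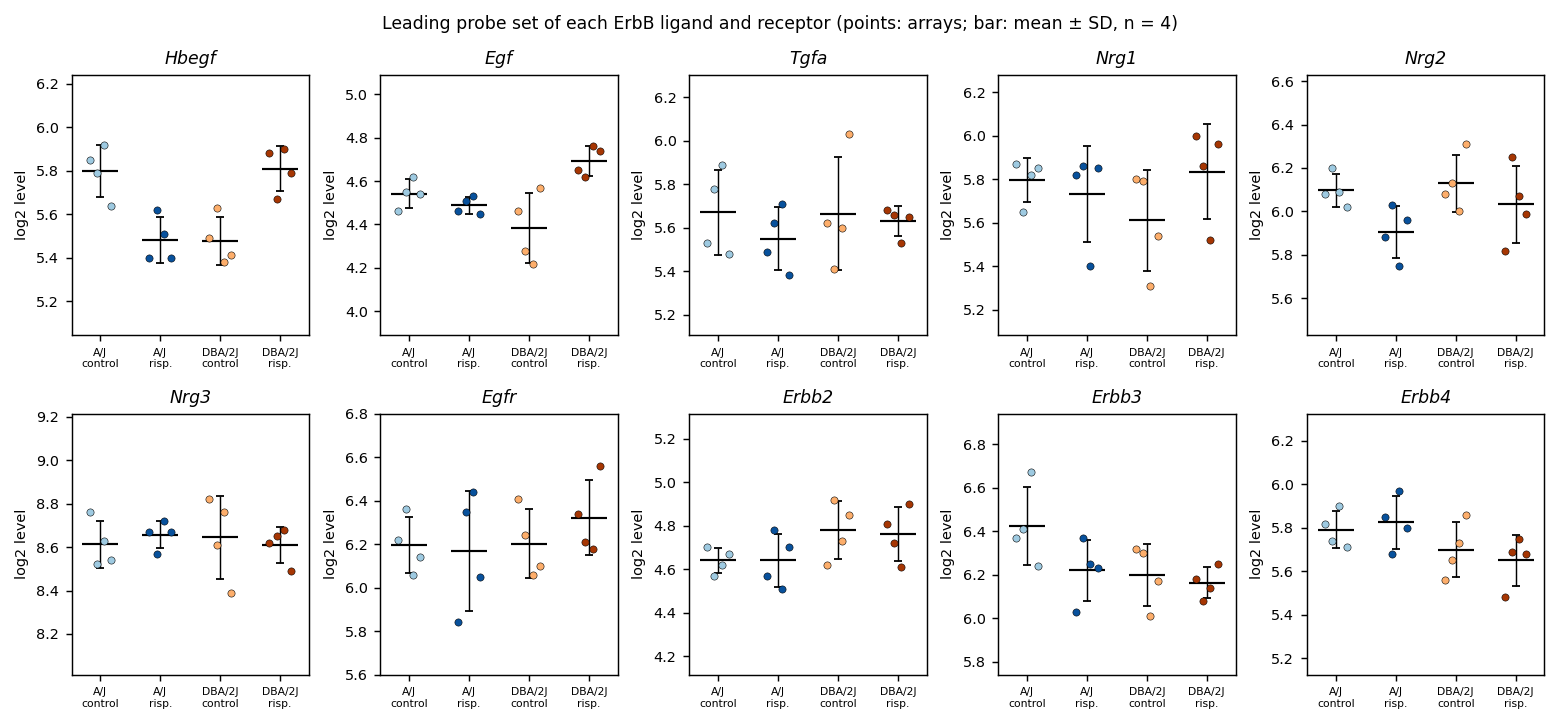
Log2 level (vertical axis, the same span of 1.2 in every panel) of the leading probe set of each of the 10 genes on every array, by group; points are arrays and bars the mean ± SD (n = 4). In Hbegf the treated arrays lie below the controls in A/J and above them in DBA/2J, and in Egf they lie above the controls in DBA/2J.

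For 3 members the genes whose level varied most like theirs within groups were taken from 5661 genes of higher level, as a description over 16 arrays. For Hbegf they were Nrarp (r = 0.79), a target and brake of Notch signaling, Git2 (0.73), Tcaim (0.71), Slc9a3r1 (0.69) and Manea (0.68). For Erbb3 they were Ednrb (0.77), an endothelin receptor of glia, Rcn2 (0.74), Kcnj10 (0.74), the glial potassium channel Kir4.1, Usp39 (0.73) and Mphosph8 (0.72). For Erbb4 they were Psmb2, Ilrun, Crkl, Mfsd14a and Zhx3, at 0.78 to 0.81. The highest of so many correlations over 16 arrays are high by selection.

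Counted over the family without Hbegf, 0 of 9 genes passed an adjusted p under 0.05 for risperidone in A/J, where 0% of all named genes did. In DBA/2J 0 of 9 passed, against 0.0643% of all genes, and for the mean of both strains 0 of 9, against 0.0526%. At an unadjusted p under 0.05, 0 of 19 member probe sets passed in A/J (4.96% of all), 2 in DBA/2J (10.4% of all) and 2 for the mean (6.69% of all). Groups did not overlap for 0 of these 19 in A/J (4.43% of all) and for 2 in DBA/2J (4.3% of all), that of Egf and 1 of Erbb3. Over the 10 leading probe sets, Hbegf included, the median risperidone difference was -0.06 in A/J, against -0.01 over all genes, and -0.03 in DBA/2J, against 0.01. In DBA/2J the unadjusted share of these members was thus close to that of all probe sets.

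**Figure D5:**
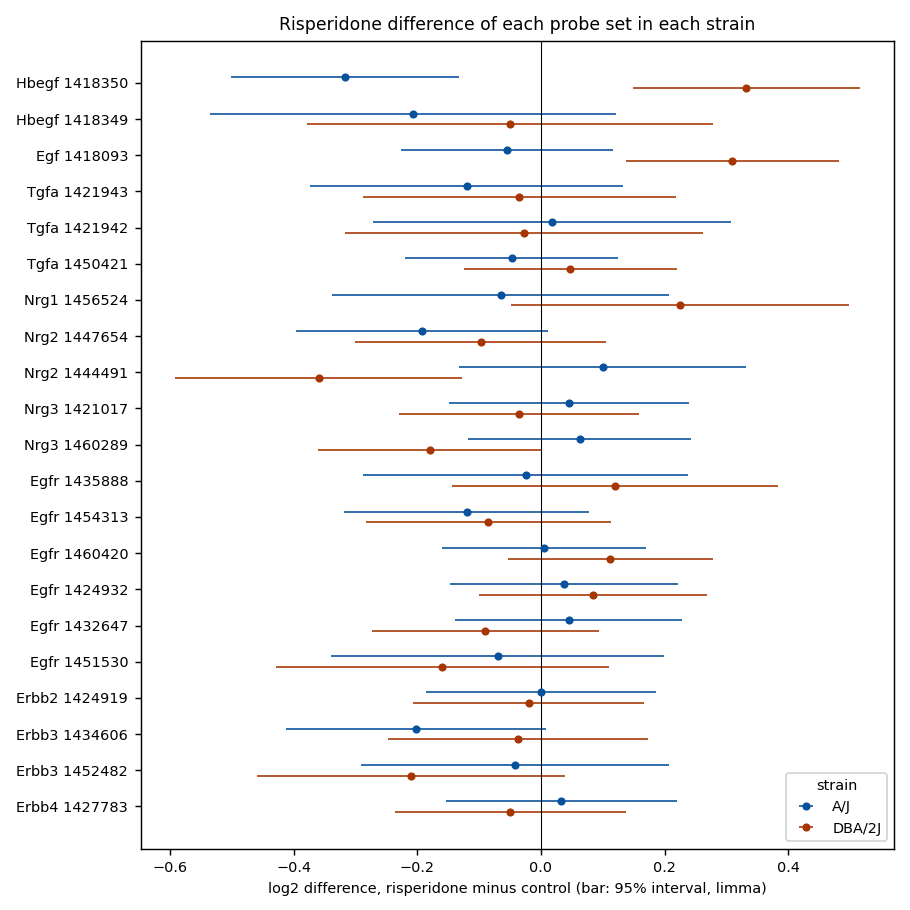
Log2 difference of risperidone minus control (horizontal axis) for each of the 21 probe sets in A/J and DBA/2J; points are limma estimates and bars 95% intervals. The largest differences of leading probe sets are those of Hbegf, -0.32 in A/J and 0.33 in DBA/2J, followed by Egf in DBA/2J at 0.31.

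In the strain difference of the risperidone effect 0% of all named genes passed the adjusted threshold and 8.33% of probe sets an unadjusted p under 0.05. Its value in the other 9 leading probe sets ran from -0.08 in Erbb4 and Nrg3 to 0.36 in Egf. This is the contrast that chose the family, and nothing is read from it here.

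Between strains, 0 of the 9 members other than Hbegf passed in control mice (5.31% of all genes), 0 in risperidone mice (1.02%) and 0 on average (6.07%). Unadjusted, 3 of 19 probe sets passed in control mice (17% of all), 2 in risperidone mice (9.06%) and 2 on average (16%). Without the Hbegf probe sets, strains did not overlap for 0 of 19 in control mice (9.2% of all) and for 1 in risperidone mice (7.71%), that of Egf.

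Of 87 other genes of the pathway 76 were measured. The pathway lists were chosen with earlier results of these data known. Shares above those of all genes, with risperidone or between strains, are therefore not read as a pathway result. With risperidone in DBA/2J 2 of them (2.63%, against 0.0643% of all genes) passed the adjusted threshold. Fos was lower by 0.81 (adjusted p = 0.00284) and Egr1 by 0.64 (adjusted p = 0.0367), both transcription factors that ERK signaling induces. Egr1 was also higher in DBA/2J than in A/J controls, by 0.44 (adjusted p = 0.0231), so its DBA/2J difference was taken from the higher of both control groups. On average over both strains Fos alone passed (1.32% of the 76, against 0.0526%), lower by 0.68 (adjusted p = 0.000638). In A/J 0 of 76 passed, as did 0% of all genes. There 9 of the 76 had at least 1 probe set at an unadjusted p under 0.05. Counted by probe set and not by gene, the share over all was 4.96%. None of the 9 proteases and regulators that release the ligands passed in a risperidone comparison. In DBA/2J 1 of 76 passed when any of 12 of the 16 arrays was left out, and 0 without the 3 A/J arrays of intermediate markers and DBA/2J control replicate 4. Over the 13 ERK targets measured, 12 were lower in treated DBA/2J mice, with a median of -0.14, against 0.01 over all genes. In treated A/J mice 9 were lower, with a median of -0.04, against -0.01 over all genes. For the mean of both strains 11 were lower, with a median of -0.09, against 0.0013 over all genes. The share of all genes that were lower was not computed.

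Between strains 10 of the 76 pathway genes passed in control mice (13.2%, against 5.31% of all genes), 8 of them higher and 2 lower in DBA/2J. In risperidone mice 3 passed (3.95%, against 1.02%), and on average 9 (11.8%, against 6.07%). Adam17, the protease that releases Hbegf and Tgfa, was 0.74 ± 0.12 (SE) higher in DBA/2J controls on 1 of its 3 probe sets (adjusted p = 0.00119) and 0.56 ± 0.12 higher in DBA/2J mice with risperidone (adjusted p = 0.0360). Wwox, which binds Erbb4, was higher by 0.58 in controls and 0.71 with risperidone. Grb7, an adaptor of Erbb2 and Erbb3, was higher by 0.45 with risperidone (adjusted p = 0.0447). In controls Spred2, a brake on the RAS cascade, was higher by 0.33, the ERK phosphatase Dusp4 by 0.33 and the phosphatase Ptpn12 by 0.40, while Socs4 and Lrig3 were lower, with differences of -0.46 and -0.57 (adjusted p of these 5 genes 0.00556 to 0.0227). On average the kinase Src was higher by 0.37. The calls of Ptpn12, Socs4 and Lrig3 came from probe sets other than the leading one, and Pik3ca was called on average by probe sets of opposite sign. In controls the called probe sets of Socs4 and Lrig3 lay far below the median of all probe sets, 5.67. Their means in DBA/2J and A/J controls were 2.5925 and 3.0475 for Socs4, and 2.9225 and 3.4975 for Lrig3. In controls 1 of 5 probe sets passed for Spred2, 1 of 3 for Wwox and 1 of 2 for Src. The numbers were 2 of 4 for Ptpn12, 1 of 4 for Socs4, 1 of 3 for Lrig3 and 1 of 6 for Pik3ca. The shares of genes called take no account of the number of probe sets per gene. The count of pathway genes in control mice was 4 without A/J control replicate 3 and also 4 without the 3 A/J risperidone arrays of intermediate markers. That in risperidone mice, 3 of 76, was 0 without those 3 arrays, and also without A/J risperidone replicate 1 or 3 or DBA/2J risperidone replicate 1 or 4.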

How the data were processed

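Striatal RNA of 16 mice was measured on Affymetrix mouse perfect-match arrays, 1 array a mouse. Per the submitters' processing notes the values were made with RMA (version not given in the sources used here); the deposited values are log2 levels per probe set, with array medians of 5.66 to 5.71. The number of arrays limits the precision. The values were used as deposited. No probe set was dropped for a low level; 45037 entered the tests after removal of 104 array controls. Gene names came from the platform annotation, and a gene was read only through probe sets naming it alone.

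In R 4.3.3, limma 3.58.1 (lmFit, then eBayes) fitted 4 group means over the 16 arrays. Tests were two-sided, with Benjamini-Hochberg adjustment over all 45037 probe sets, and a gene was called at an adjusted p under 0.05 in a probe set. A gene's leading probe set is the brightest on average. SD refers to the 4 arrays of a group, SE to the limma difference. The analysis was tested on simulated data. The DBA/2J marker share of an array is its median position, on the linear scale, between the A/J and DBA/2J control means over probe sets chosen on the control arrays without the array scored. Alternatives were median centring, quantile normalization once more, leaving out probe sets under the median level, other rules for several probe sets, other limma settings, array weights, a replicate block and left-out arrays.

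The members, gene lists and tests were chosen with earlier results of these data known. The text names every member, its probe sets that stood apart, the 5 genes most like 3 members, and up to 6 called pathway genes of smallest p in each comparison; several second probe sets were singled out after their values were seen. DBA/2J risperidone replicates 2 to 4 carry 1 description, but within groups only 1.11% to 2.86% of values were identical. P-values measure the spread between these mice within 1 experiment.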

Additional observations from a re-analysis of the deposited data

Results flagged for a closer look

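Of 84 groups of 4 arrays, 1 for each member probe set and group, 4 held an array whose gap to the nearest other exceeded Dixon's 95% critical value as a share of the range. Chance flags about 1 in 20 groups, or 4.2 here. On the second Hbegf probe set, 1418349_PM_at, DBA/2J risperidone replicate 3 was at 6.12 while the other 3 arrays were at 5.44 to 5.51. Nrg1 was at 5.40 in A/J risperidone replicate 3, against 5.82 to 5.86. Egfr was at 5.66 on 1454313_PM_at in A/J control replicate 3, against 5.92 to 5.95. On 1432647_PM_at Egfr was at 5.40 in A/J risperidone replicate 1, against 5.19 to 5.22. The risperidone difference of Hbegf on 1418350_PM_at differed by 0.65 between DBA/2J and A/J, with every treated array above the controls in 1 strain and below them in the other. This difference was not tested, since it chose the family.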

How the results depend on the processing

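Alternatives were run on 105 differences of members, giving 2867 values. The sign changed in 171 of these, 151 of them where the reported difference was no larger than its own SE, and 0 of the 171 passed the threshold (lowest adjusted p 0.654). Of the 39 differences reported, 1011 of 1080 values kept their direction and side of the threshold or, where sign was not counted, moved by less than 1 SD. Where sign was counted, 64 values changed it. The cause was not tested. With the DBA/2J marker share as a covariate, which nearly separates the strains so that strain differences have large errors by construction, the average strain difference became -0.13 in Egfr 1424932_PM_at, -0.11 in Erbb2 and 0.21 in Erbb4, and the A/J difference 0.18 in Egfr, -0.0748 in Erbb2 and 0.0775 in Tgfa. With array weights Erbb2 became 0.0202 in A/J, Erbb4 0.0046 and Tgfa 0.0903 in DBA/2J, and the mean Hbegf risperidone difference -0.019. With probe sets averaged per gene, Egfr was -0.0029 in DBA/2J and the mean Hbegf risperidone difference -0.0606. Median centring gave -0.015 for Erbb2 in A/J and -0.0087 for the Hbegf strain average. A second quantile normalization gave Erbb2 -0.0163 in A/J and 0.0023 in DBA/2J, and the Hbegf strain average -0.0057. Without the 3 A/J arrays of intermediate markers the A/J difference was 0.24 in Egfr, -0.13 in Erbb2, -0.035 in Nrg2 1444491_PM_at and 0.04 in Tgfa, and the Hbegf strain average -0.0112. With arrays left out, including those 3 together with DBA/2J control replicate 4, the A/J difference ran from -0.18 to 0.04 in Tgfa, -0.12 to 0.24 in Egfr, -0.13 to 0.0433 in Erbb2, -0.0158 to 0.18 in Erbb4, -0.40 to 0.0458 in Nrg1 and -0.035 to 0.14 in Nrg2 1444491_PM_at. The DBA/2J difference ran from -0.0733 to 0.03 in Erbb2, -0.10 to 0.0025 in Erbb3, -0.10 to 0.0067 in Erbb4, -0.12 to 0.0233 in Nrg3 and -0.12 to 0.0867 in Tgfa. The Hbegf averages ran from -0.0192 to 0.0329 for risperidone and -0.0242 to 0.0258 for strain.

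The count of family genes past the threshold between strains in control mice holds Hbegf, whose values chose the family, and is not read as a test. It was 1, and became 0 with the level filter, averaged probe sets, trend and robust estimation, array weights, the marker share, without the 3 arrays, and with only the arrays compared. The level filter leaves out both Hbegf probe sets. With arrays left out the count was 0 to 1. With the replicate block, and without DBA/2J control replicate 3, the 1 gene counted was Nrg2 and not Hbegf. For the pathway genes, the 10 called between control mice became 6 with averaged probe sets, 3 with only the arrays compared, 4 without the 3 arrays and 0 with the marker share, and ran from 4 to 11 with arrays left out. The 3 called between risperidone mice became 1 with averaged probe sets, 0 without the 3 arrays and 0 with the marker share, and ran from 0 to 3. The 9 called on average became 3 without the 3 arrays and 0 with the share, and ran from 5 to 11. In DBA/2J the 2 called with risperidone became 1 with the share, array weights or without the 3 arrays, 0 with only the arrays compared, and ran from 0 to 3. For the mean, 1 became 2 with trend and robust estimation, the filter or the replicate block, 0 without the 3 arrays, and ran from 0 to 2. In A/J, 0 became 1 with array weights or the filter.

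The replicate numbers paired the arrays weakly at most. The correlation of same-numbered arrays, as deviations from group means, was -0.06 to 0.17, and 1, 2, 1 and 1 of 4 exceeded 0.1 in the 4 comparisons. Its mean was 0.0255 to 0.0745, above that of the other pairs, -0.0247 to -0.008, in each of the 4. Whether same-numbered arrays share a source of variation was not tested. With the replicate block Nrg2 1444491_PM_at passed between strains in control mice (adjusted p = 0.0307), and among the members tested it changed no other call.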
